A study of Mus musculus with 12 samples.

Results

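The genes described here are the 10 that encode the subunits of the hypoxia-inducible factors (HIFs) and the enzymes that sense oxygen for them: the alpha subunits Hif1a, Epas1 and Hif3a, the beta subunits Arnt and Arnt2, the prolyl hydroxylases Egln1, Egln2 and Egln3, the asparaginyl hydroxylase Hif1an, and Vhl. They were chosen by gene symbol, and all 10 were found by their Ensembl identifiers among the 38924 genes of the count tables. RNA was sequenced from 12 pancreatic neuroendocrine tumors (PanNETs, insulinomas) of RIP1Tag2 mice on the C57Bl6 strain. In this model the rat insulin promoter drives the SV40 T antigens in the beta cells of the pancreatic islets, so every tumor, controls included, carried that transgene. The 4 saline tumors came from mice given control saline treatment, the 4 sunitinib tumors from mice on sunitinib monotherapy, which blocks the receptors of VEGF and PDGF, and the 4 R+S tumors from mice on sunitinib together with rapamycin, an inhibitor of mTORC1. Per the labels, mice were treated from 15.5 weeks of age for 4 days. Tumors are named here by their label numbers: saline 1, 2, 3 and 4, sunitinib 5, 6, 8 and 12, and R+S 4, 5, 7 and 10. The labels do not say whether tumors came from separate mice. In the titles sunitinib tumors 5, 6 and 8 share 1 code, R+S tumors 5 and 7 share another, and all 4 saline tumors share one of their own. What these codes mean is not stated, and tumors of 1 code could come from 1 source, so the independent animals may be fewer than 4 a group and p-values measure only the spread between these tumors.

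A HIF is a pair of proteins, an alpha subunit and a beta subunit, that binds DNA and switches on genes for glycolysis, blood vessel growth and survival with little oxygen. The alpha subunits are made all the time, but with oxygen present the EGLN enzymes hydroxylate them on prolines, VHL binds the hydroxylated protein, and the proteasome destroys it, while HIF1AN (factor inhibiting HIF) blocks the part of the protein that recruits coactivators. The control of HIF by oxygen therefore acts on the protein, and the RNA level of an alpha subunit does not report HIF activity. Egln1 and Egln3 are known as HIF targets, but their RNA alone is no measure of HIF activity. Only RNA was measured here.

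Each tumor had between 31872342 and 44215054 reads on genes. The tumor identity of the samples was checked on 11 islet beta cell markers, whose summed level was 40741 to 64879 CPM (counts scaled to a common library size) in saline tumors, 35144 to 80899 CPM in sunitinib tumors 5, 8 and 12 and 45263 to 71425 CPM in R+S tumors. With all 12 tumors edgeR and DESeq2 called 0 of the 11 in any comparison, with 0, 1 and 0 at an unadjusted edgeR p below 0.05. By edgeR 1 was lower in R+S versus sunitinib without sunitinib tumor 6, and 1 lower in R+S versus saline in the fit of those 8 tumors. Sunitinib tumor 6 stood apart: its log2 expression correlated with the other sunitinib tumors at r = 0.872 to 0.895, against 0.957 to 0.991 for all other pairs within groups, and its summed beta cell markers reached only 4705 CPM. In this tumor the insulin gene Ins2 stood at 784 CPM and the beta cell factor Pdx1 at 4.17 CPM, while the neuroendocrine granule gene Chga stood at 2849 CPM. Results that rest on this tumor are given with and without it. Transcripts of 3 other cell types separated the treated from the saline tumors. The summed level of 14 endothelial markers was 641 to 848 CPM in saline, 62.9 to 104 in sunitinib and 140 to 180 in R+S tumors. That of 12 acinar markers was 2.43 to 83.5 CPM in saline, 9227 to 34289 in sunitinib and 2273 to 14088 in R+S tumors, with the acinar factor Ptf1a at 0 in all 4 saline tumors. That of 5 erythroid markers was 68.7 to 375 CPM in saline, 1.66 to 4.81 in sunitinib and 2.96 to 22.2 in R+S tumors.

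Of the 10 genes, Egln1 was the one whose RNA passed the test, and it rose in both treated groups. Epas1, the gene of HIF-2 alpha, was lower in every treated tumor than in any saline tumor, but did not pass the test in the fit of all 12 tumors. Hif1a, the gene of HIF-1 alpha, passed in no comparison. Levels are given below as TMM-normalized CPM (counts scaled by library size and by edgeR's trimmed mean of M-values), and a gene was called where edgeR's quasi-likelihood test gave a Benjamini-Hochberg adjusted p below 0.05 over the 16645 genes tested. The 3 comparisons share tumors with each other, so each is reported on its own. The calls of R+S versus sunitinib rest on the spread of all 12 tumors and on single R+S tumors: 1200 genes were called in all, against 1, 0 and 1 without R+S tumors 4, 5 and 7, 314 without R+S tumor 10, and 3 in a fit of those 8 tumors alone.

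**Figure D1:**
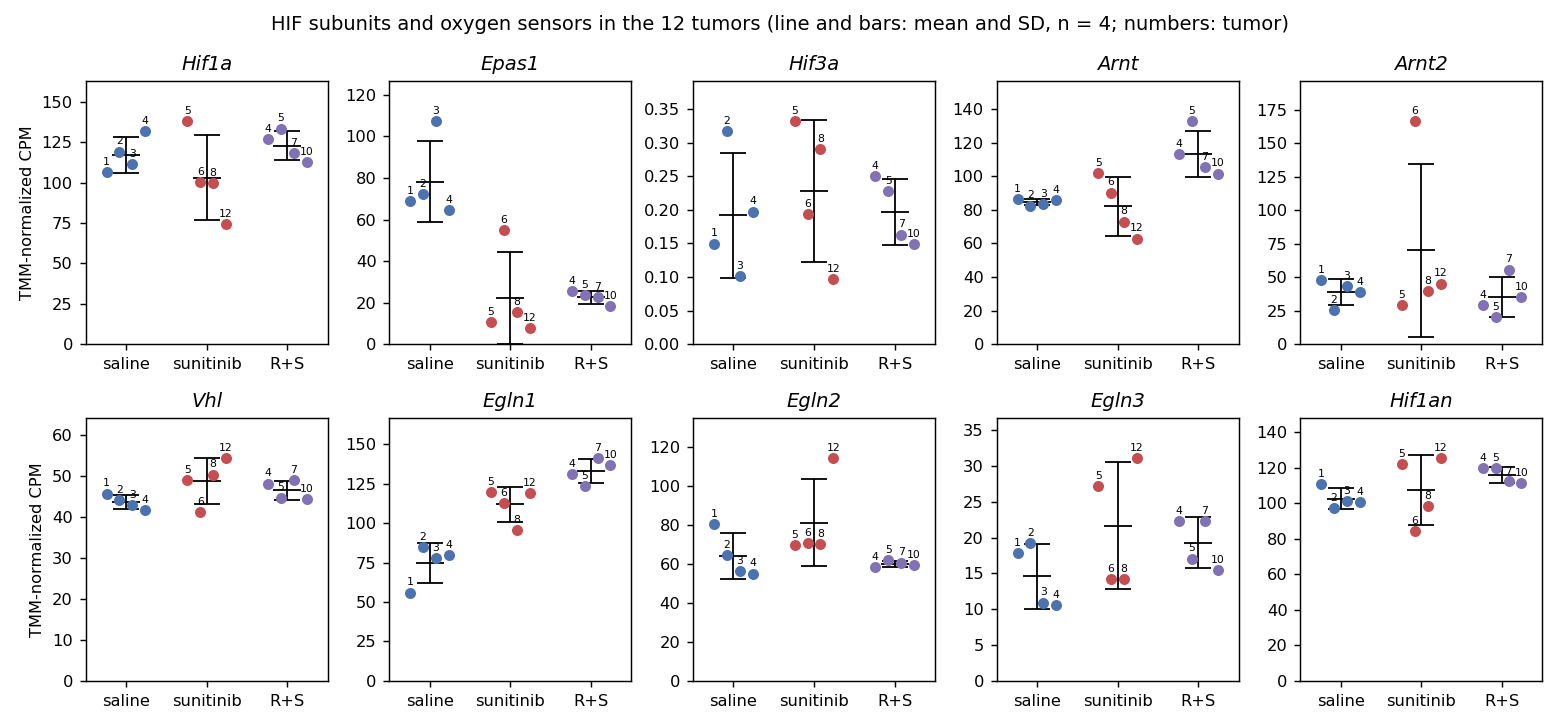
Each panel plots 1 gene, with the group on the x axis and the TMM-normalized CPM of each tumor on the y axis; points are tumors with their label numbers, and the horizontal line and bars are the mean and SD of 4 tumors. Every treated tumor lies below the saline tumors for Epas1 and above them for Egln1, and sunitinib tumor 6 lies far above the other tumors for Arnt2.

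Hif1a (chr12:73901375-73947530, plus strand, GENCODE M21 on GRCm38, as for all genes below) encodes the alpha subunit found in nearly all cells. It was measured at 106, 119, 111 and 132 CPM in saline tumors, at 138, 100.2, 99.9 and 74.3 CPM in sunitinib tumors, and at 127, 133, 118 and 113 CPM in R+S tumors. The 3 groups overlapped, with the highest and the lowest of the 12 values both among the sunitinib tumors. The log2 fold change was -0.18 for sunitinib versus saline (95% interval -0.54 to 0.17, edgeR quasi-likelihood adjusted p = 0.556). It was 0.07 for R+S versus saline (-0.28 to 0.42, edgeR adjusted p = 0.855) and 0.25 for R+S versus sunitinib (-0.10 to 0.60, edgeR adjusted p = 0.306). These intervals leave room for differences of up to 1.52-fold, at the upper bound of R+S versus sunitinib. An antisense gene, Gm15283, shares 330 bp with the exons of Hif1a and had 0 to 149 reads per tumor, against 2315 to 5408 for Hif1a.

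Epas1 (chr17:86753700-86833410, plus strand) encodes the alpha subunit named for its expression in endothelial cells. It was measured at 69.0, 72.2, 107 and 64.5 CPM in saline tumors, at 10.7, 54.9, 15.6 and 7.86 CPM in sunitinib tumors, and at 25.5, 23.5, 22.7 and 18.4 CPM in R+S tumors. All 8 treated tumors were below the lowest saline tumor, and sunitinib tumor 6 was the only treated tumor near the saline range. The mean in sunitinib tumors was 3.51-fold lower than in saline tumors (log2 fold change -1.81, SE 0.51, 95% interval -2.92 to -0.71), with edgeR adjusted p = 0.0732. The mean in R+S tumors was 3.47-fold lower (-1.80, SE 0.51, -2.90 to -0.69), with edgeR adjusted p = 0.0698. Both gave p = 0.0286 in a two-sided exact permutation test, the smallest that 4 tumors against 4 allow (70 arrangements), not adjusted over genes. Without sunitinib tumor 6, Epas1 passed in all 3 comparisons: the log2 fold change was -2.78 for sunitinib versus saline (edgeR adjusted p = 9.85e-05), -1.80 for R+S versus saline (edgeR adjusted p = 0.000796), and 0.98 for R+S versus sunitinib (edgeR adjusted p = 0.0349). With all 12 tumors, the last was 0.02 (-1.06 to 1.09, edgeR adjusted p = 0.986). In a fit of the 8 saline and R+S tumors alone, R+S versus saline also passed (edgeR adjusted p = 0.000694). These fits also called more genes in all. For R+S versus saline the fit of 8 tumors called 2557 of 16184 genes. The fit without sunitinib tumor 6 called 1627 of 16822, against 693 of 16645 with all 12 tumors.

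Endothelial markers separated the same tumors. Of the 14, 13 fell in sunitinib tumors (median log2 fold change -2.87), 12 fell in R+S tumors (median -1.88), and 9 were higher in R+S than in sunitinib tumors (median 0.93). Without sunitinib tumor 6 the counts were 14, 12 and 8. The counts against saline ran from 12 to 14 and from 11 to 12 with any tumor left out. The 9 of R+S versus sunitinib became 0 without R+S tumor 4, 5 or 7, 2 without R+S tumor 10 and 0 in the fit of those 8 tumors, with the median between 0.88 and 0.98 in these fits. Erythroid markers, mostly globin genes of red blood cells, also separated treated from saline tumors: 5 of 5 fell in sunitinib tumors (median -6.11) and in R+S tumors (median -4.30). Their sums were 1.66, 2.82, 2.19 and 4.81 CPM in sunitinib tumors 5, 6, 8 and 12. The highest of these was in tumor 12, where Epas1 was lowest. Of the endothelial markers, the VEGF receptor gene Kdr fell by 4.83 on the log2 scale in sunitinib tumors and by 3.65 in R+S tumors. In sunitinib tumor 6 the summed endothelial level, 103 CPM, was within the range of the other sunitinib tumors (62.9 to 104 CPM), while its Epas1 level was above theirs. In bulk tumor RNA, fewer endothelial cells and less Epas1 RNA per cell cannot be told apart, and the part of endothelial or blood RNA in the Epas1 values was not tested.

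**Figure D2:**
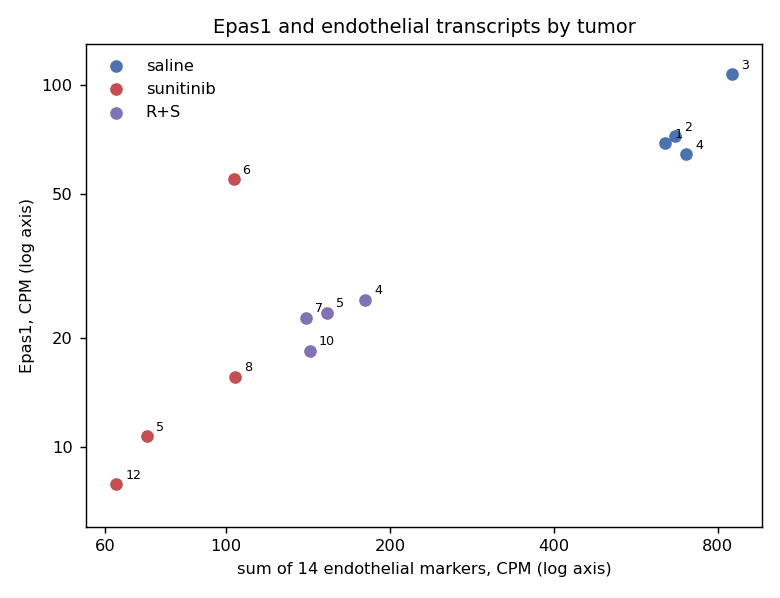
The x axis is the summed CPM of the 14 endothelial markers and the y axis the CPM of Epas1, both on log axes, with 1 point for each tumor and its label number. The saline tumors lie at the upper right (641 to 848 CPM of endothelial markers), 7 treated tumors lie at the lower left, and sunitinib tumor 6 lies above them, at 103 CPM of endothelial markers and 54.9 CPM of Epas1.

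Hif3a (chr7:17031507-17062427, minus strand) encodes an alpha subunit of which some splice forms oppose the other HIFs. It had 7, 12, 4 and 7 reads in saline tumors, 13, 7, 11 and 3 in sunitinib tumors and 9, 9, 6 and 6 in R+S tumors. These counts were too low for the filter, so Hif3a was not tested, and no difference could be resolved at this depth. Within the alpha subunits, the balance on the scale of CPM per kb of exon lay closer to Hif1a in treated tumors. The ratio of Epas1 to Hif1a was 0.714 ± 0.214 (SD, n = 4) in saline tumors, 0.234 ± 0.232 in sunitinib tumors and 0.193 ± 0.0178 in R+S tumors. It was above 0.5 in all 4 saline tumors and in sunitinib tumor 6 (0.578), and at most 0.212 in the other 7.

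Arnt (chr3:95434388-95497240, plus strand) encodes the common beta subunit, which also pairs with the aryl hydrocarbon receptor. It was measured at 86.3, 82.5, 83.2 and 85.8 CPM in saline tumors, at 101.9, 90.3, 72.9 and 62.9 CPM in sunitinib tumors, and at 113, 133, 105 and 101.5 CPM in R+S tumors. The saline tumors were tightly grouped, the sunitinib tumors spread to both sides of them, and the R+S tumors were all above the saline tumors. The log2 fold change for R+S versus saline was 0.42 (SE 0.15, 95% interval 0.10 to 0.74), which did not pass (edgeR adjusted p = 0.132). It passed where only the 8 tumors of that comparison were fitted (edgeR adjusted p = 0.0205). That fit called 2557 of 16184 genes in all, against 693 of 16645 in the fit of all tumors. R+S versus sunitinib gave 0.47 (SE 0.15, 0.15 to 0.78), with edgeR adjusted p = 0.0688. DESeq2 gave adjusted p = 0.0314 for that comparison, and edgeR gave adjusted p = 0.021 without sunitinib tumor 5. Both fits also called more genes in all. DESeq2 called 2972 of 17218 and edgeR without that tumor 2861 of 16894, against 1200 of 16645 by edgeR with all tumors. For sunitinib versus saline the log2 fold change of Arnt was -0.04 (-0.36 to 0.28, edgeR adjusted p = 0.896).

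Arnt2 (chr7:84246278-84410176, minus strand) encodes a second beta subunit, best known from neurons. It was measured at 48.0, 25.7, 43.4 and 38.7 CPM in saline tumors, at 29.2, 166, 39.5 and 45.2 CPM in sunitinib tumors, and at 29.2, 20.3, 55.7 and 35.4 CPM in R+S tumors. The value of 166 CPM belongs to sunitinib tumor 6, and the other 11 tumors overlapped. Sunitinib versus saline gave a log2 fold change of 0.85 (SE 0.51, edgeR adjusted p = 0.382) with that tumor and -0.04 (edgeR adjusted p = 0.96) without it. R+S versus saline gave -0.15 (-1.25 to 0.95, edgeR adjusted p = 0.902). R+S versus sunitinib gave -0.997 (-2.11 to 0.11, edgeR adjusted p = 0.204), and -0.11 without sunitinib tumor 6. Per kb of exon, Arnt2 reached 1.92 times the level of Arnt in sunitinib tumor 6 and 0.159 to 0.749 times in the other 11 tumors. Tumor 6 was thus the only one in which Arnt2 exceeded Arnt.

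The 3 prolyl hydroxylase genes lie on the minus strand, Egln1 at chr8:124908587-124949324, Egln2 at chr7:27158658-27166802 and Egln3 at chr12:54178981-54203860. EGLN1 (PHD2) is the main oxygen sensor for HIF-1 alpha in most cells, and EGLN1 and EGLN3 (PHD3) are themselves known as HIF targets. Their promoters are shown because Egln1 was the member that passed, beside its closest relatives. The capitals mark the core of the hypoxia response element, ACGTG or GCGTG, searched on both strands, so that the reverse complements CACGT and CACGC count too. The sequences are from RefSeq (GRCm38.p6), written 5′ to 3′ along the gene up to the last base before its start. For Egln1 the 70 bases that fall inside the GENCODE gene were left off.
Egln1, chr8:124949325-124949504: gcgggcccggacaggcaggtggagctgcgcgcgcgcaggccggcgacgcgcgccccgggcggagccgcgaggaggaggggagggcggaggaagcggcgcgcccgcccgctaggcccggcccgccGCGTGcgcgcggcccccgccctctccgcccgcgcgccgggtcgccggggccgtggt
Egln2, chr7:27166803-27167052: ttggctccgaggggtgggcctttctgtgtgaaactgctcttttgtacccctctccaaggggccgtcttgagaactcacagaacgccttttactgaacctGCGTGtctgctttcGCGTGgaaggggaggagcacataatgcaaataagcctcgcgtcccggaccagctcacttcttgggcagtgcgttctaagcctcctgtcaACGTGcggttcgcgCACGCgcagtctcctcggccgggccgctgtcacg
Egln3, chr12:54203875-54204124: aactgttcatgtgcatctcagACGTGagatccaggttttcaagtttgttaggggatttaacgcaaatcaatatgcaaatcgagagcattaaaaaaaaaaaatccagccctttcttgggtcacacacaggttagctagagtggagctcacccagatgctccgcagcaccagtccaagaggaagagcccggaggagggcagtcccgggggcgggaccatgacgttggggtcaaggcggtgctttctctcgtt

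In the 250 bases before the RefSeq start, Egln1 held 2 cores, a GCGTG that begins 126 bases and an ACGTG that begins 68 bases before the start, the latter within the bases left off above. Egln2 held 4, Egln3 held 1, Hif1a 3, Hif3a 2 and Arnt 1, and none was found for Arnt2, Vhl and Hif1an. The 3 in Hif1a include a CACGTG palindrome, which counts on both strands. The Hif1a window, chr12:73907617-73907866, lies inside the GENCODE gene, which begins at 73901375. The windows of Arnt, Arnt2, Vhl and Hif1an reach in part into theirs. Such short cores are common: 38.6% of the 32841 RefSeq windows of the same length held at least 1, 6.58% at least 3 and 2.59% at least 4. A second RefSeq start of Egln2, with its window inside the gene, had 1 core, and Epas1 was not in the promoter table. A match is a description of the letters and not a binding site.

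Egln1 was measured at 56.0, 84.8, 78.0 and 79.7 CPM in saline tumors, at 119.6, 113, 95.7 and 119 CPM in sunitinib tumors, and at 131, 124, 141 and 137 CPM in R+S tumors. The groups did not overlap: each sunitinib tumor was above each saline tumor, and each R+S tumor above each sunitinib tumor. Egln1 rose 1.5-fold in sunitinib tumors (log2 fold change 0.58, SE 0.13, 95% interval 0.29 to 0.87, edgeR adjusted p = 0.0279, exact permutation p = 0.0286). It rose 1.79-fold in R+S tumors (0.84, SE 0.13, 0.55 to 1.13, edgeR adjusted p = 0.00467, exact permutation p = 0.0286). R+S versus sunitinib did not pass (0.25, -0.04 to 0.54, edgeR adjusted p = 0.216). The exact permutation test of these 8 tumors gave p = 0.0286, which only restates that the groups did not overlap. In this comparison 18.6% of all genes did not overlap. The R+S call held in all 12 fits that left out a tumor and in all 7 other settings tried. The sunitinib call held in 8 of those 12 fits and 5 of the 7 settings. It was lost without saline tumor 3 (edgeR adjusted p = 0.0747), saline tumor 4 (0.0611), sunitinib tumor 5 (0.0502) or sunitinib tumor 12 (0.062), in the fit of the 8 tumors alone (0.124), and with treated tumors of a shared title code (a prefix) summed (0.0600). The acinar markers also separated both treated groups from saline, and 11 of 11 tested rose in each. Between sunitinib and R+S tumors their sums overlapped (9227 to 34289 against 2273 to 14088 CPM), and edgeR called 0 of 11, with 2 at an unadjusted p below 0.05. DESeq2 called 1 of them, against 2972 of 17218 genes. The part of acinar RNA in the Egln1 values was not tested.

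Egln2, which encodes PHD1, was measured at 80.3, 64.5, 56.2 and 54.99 CPM in saline tumors, at 69.5, 70.6, 69.99 and 114 CPM in sunitinib tumors, and at 58.5, 61.7, 60.6 and 59.1 CPM in R+S tumors. The R+S tumors were all below the sunitinib tumors, and the saline tumors overlapped both. No comparison passed: the log2 fold change was 0.34 for sunitinib versus saline (-0.04 to 0.73, edgeR adjusted p = 0.313). It was -0.09 for R+S versus saline (-0.48 to 0.29, edgeR adjusted p = 0.81). R+S versus sunitinib gave -0.43 (SE 0.18, -0.82 to -0.05), with edgeR adjusted p = 0.127 and exact permutation p = 0.0286. That exact p restates that the groups did not overlap, as was so for 18.6% of all genes.

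Egln3 was measured at 17.8, 19.2, 10.9 and 10.5 CPM in saline tumors, at 27.2, 14.2, 14.2 and 31.1 CPM in sunitinib tumors, and at 22.3, 17.1, 22.3 and 15.5 CPM in R+S tumors. All 3 groups overlapped, and sunitinib tumors 5 and 12 were the highest. The log2 fold changes were 0.57 for sunitinib versus saline (-0.09 to 1.23, edgeR adjusted p = 0.325) and 0.40 for R+S versus saline (-0.26 to 1.06, edgeR adjusted p = 0.49). R+S versus sunitinib gave -0.17 (-0.83 to 0.49, edgeR adjusted p = 0.728). The interval for sunitinib versus saline reaches 2.34-fold, so a rise of the size seen for Egln1 could not be told from none.

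On the scale of CPM per kb of exon, the 3 prolyl hydroxylase genes summed to 49.1 ± 3.98 (SD, n = 4) in saline, 68.2 ± 12.5 in sunitinib and 65.7 ± 2.71 in R+S tumors. The lowest treated tumor, at 57.0, was above the highest saline tumor, at 53.8. Egln1 made up 30.6% to 48.4% of this sum in saline tumors, 38.7% to 50.7% in sunitinib tumors and 54.8% to 58.5% in R+S tumors. Egln2 made up 42.8% to 56.3%, 36.3% to 47.6% and 31.2% to 35.0%. Egln3 stayed the smallest of the 3 in every tumor, at 8.60% to 14.98%. Egln1 was thus more than the other two together in every R+S tumor and in 1 other tumor, sunitinib tumor 6.

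**Figure D3:**
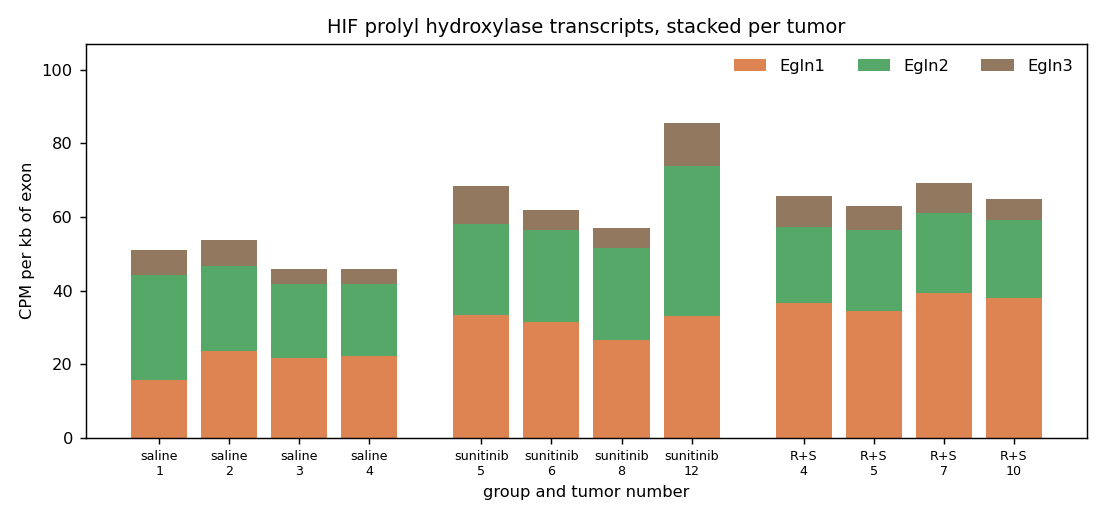
Each bar is 1 tumor, grouped by treatment and named by its label number, and the y axis is CPM per kb of exon, stacked for Egln1, Egln2 and Egln3. The bars of the 8 treated tumors, 57.0 to 85.6, are taller than those of the 4 saline tumors, 45.8 to 53.8, and the tall bar of sunitinib tumor 12 comes with its high Egln2.

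Hif1an (chr19:44562850-44576274, plus strand) was measured at 111, 97.2, 101.4 and 100.8 CPM in saline tumors, at 122, 84.5, 98.3 and 126 CPM in sunitinib tumors, and at 120.1, 120.1, 113 and 112 CPM in R+S tumors. The R+S tumors were narrowly above the saline tumors, and the sunitinib tumors spanned both groups. The log2 fold change for R+S versus saline was 0.18 (-0.09 to 0.45), with edgeR adjusted p = 0.454 and exact permutation p = 0.0286. That exact p restates that the groups did not overlap, as was so for 23.5% of all genes. The log2 fold change was 0.07 for sunitinib versus saline (-0.20 to 0.34, edgeR adjusted p = 0.785). For R+S versus sunitinib it was 0.11 (-0.16 to 0.38, edgeR adjusted p = 0.575).

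Vhl (chr6:113623959-113631633, plus strand), which encodes the substrate receptor of the ubiquitin ligase for hydroxylated HIF, had the smallest SE of the 9 genes tested in each of the 3 comparisons. It was measured at 45.8, 44.1, 43.0 and 41.7 CPM in saline tumors, at 49.0, 41.2, 50.4 and 54.5 CPM in sunitinib tumors, and at 48.2, 44.8, 49.0 and 44.4 CPM in R+S tumors. The log2 fold changes were 0.16 (-0.06 to 0.38, edgeR adjusted p = 0.414) for sunitinib versus saline, 0.09 (-0.13 to 0.32, edgeR adjusted p = 0.644) for R+S versus saline and -0.07 (-0.29 to 0.16, edgeR adjusted p = 0.687) for R+S versus sunitinib. The widest bound among these 3 intervals is 1.31-fold, for sunitinib versus saline.

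Counted together, 9 of the 10 genes were tested. For sunitinib versus saline, 1 of 9 was called, Egln1, against 4.48% of all genes, and 2 had groups that did not overlap, Epas1 and Egln1, against 10.9%. The median log2 fold change of the 9 was 0.16, against 0.03 for all genes. For R+S versus saline, 1 of 9 was called, Egln1, against 4.16%, and 4 did not overlap, Epas1, Arnt, Egln1 and Hif1an, against 23.5%. The median was 0.09, against 0.01 for all genes. For R+S versus sunitinib, edgeR called 0 of 9, against 7.21%, with 2 at an unadjusted p below 0.05, Arnt and Egln2, against 30.4%. DESeq2 called 1, Arnt, against 2972 of 17218 genes. In that comparison 2 did not overlap, Egln1 and Egln2, against 18.6%, and the median was 0.02, against -0.02.

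**Figure D4:**
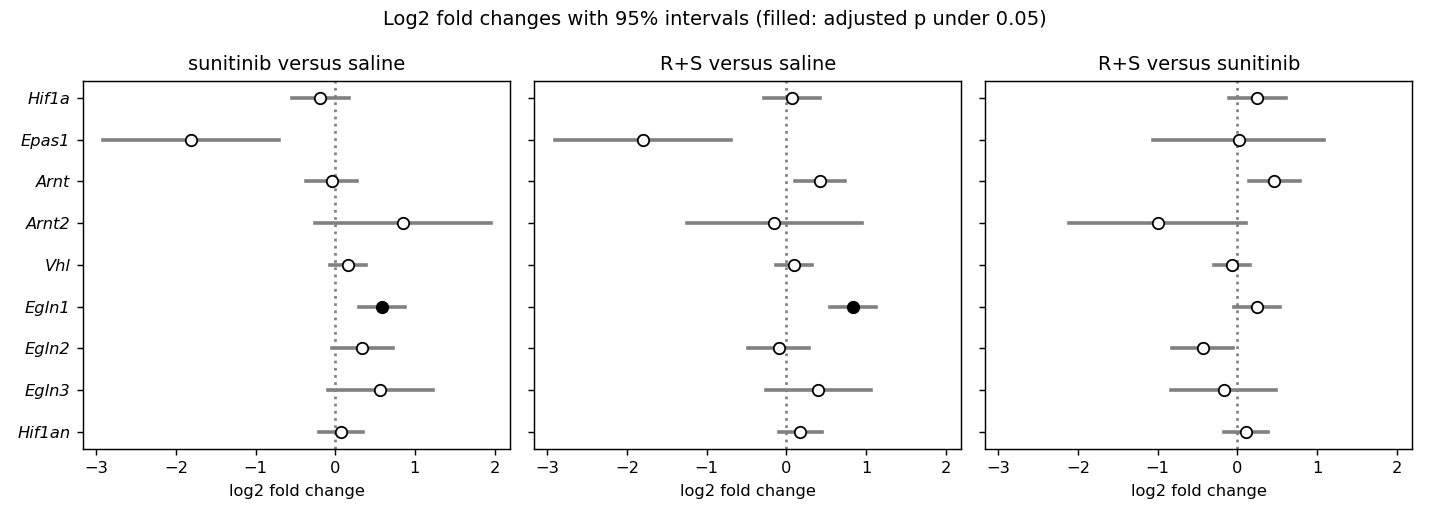
Each panel is 1 comparison, with the log2 fold change from the fit of 12 tumors on the x axis and the 9 tested genes on the y axis; points are estimates, lines are 95% intervals, and filled points have an adjusted p below 0.05. Egln1 is filled in both comparisons with saline (0.58 and 0.84), and the Epas1 intervals are wide but below 0 in both.

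Between genes, levels were compared on the scale of CPM per kb of exon. In saline tumors the order of the means was Egln2 at 22.9, Egln1 at 20.8, Hif1a at 19.9, Hif1an at 15.5, Vhl at 14.6, Epas1 at 14, Arnt at 10.5, Egln3 at 5.49, Arnt2 at 5.06 and Hif3a at 0.0285. The tumor ranges of Egln2, Egln1 and Hif1a overlapped from neighbor to neighbor, as did those of Hif1an, Vhl and Epas1 and those of Egln3 and Arnt2. Epas1 stood at percentile 76.5 of the genes tested and Hif1a at percentile 84.04. In sunitinib tumors Egln1 (31.1) and Egln2 (28.9) overlapped each other and stood above Hif1a (17.5). Epas1, at 3.98, came last but for Hif3a and stood at percentile 43.5, with a mean that rests on sunitinib tumor 6. That tumor was at 9.82, within the range of Egln3, while the other 3 were at 1.41 to 2.79, below every value of Egln3 (2.04 ± 0.70, SD, n = 3). In R+S tumors Egln1, at 37.1, was above Egln2 (21.4) in every tumor and stood at percentile 93.5. Epas1, at 4.03, and Arnt2, at 4.57, overlapped at the low end, with Epas1 at percentile 44.1.

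**Figure D5:**
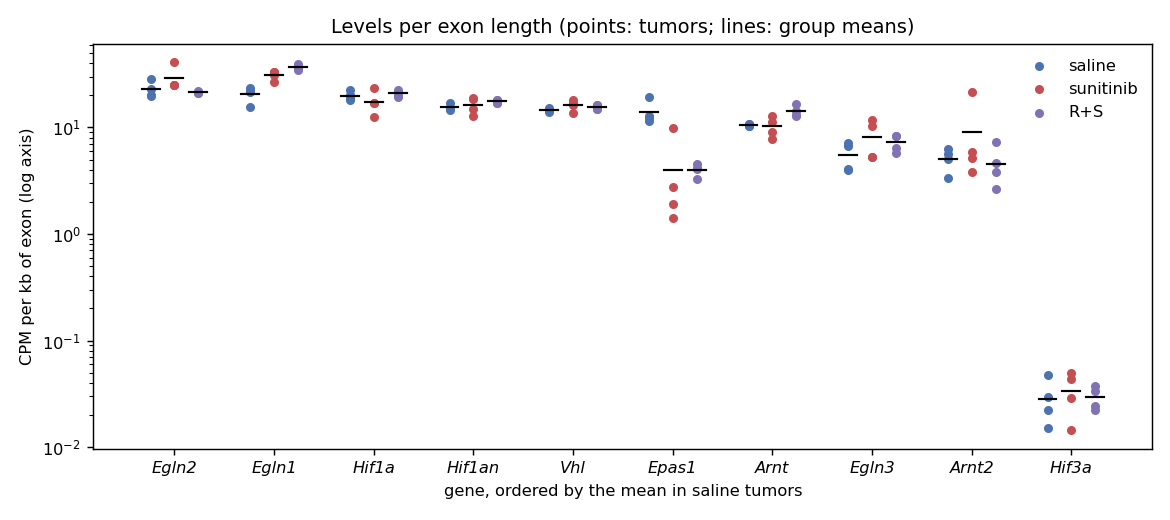
The y axis is CPM per kb of exon on a log axis, and the x axis the 10 genes in the order of their means in saline tumors; points are tumors, colored by group, and short lines are group means. The mean of Epas1 is 14 in saline, 3.98 in sunitinib (9.82 in tumor 6 and at most 2.79 in the others) and 4.03 in R+S tumors, and Hif3a lies near 0.03 in all groups.

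The wider pathway was described by 4 lists of genes that hold none of the 10. Of 25 partners and regulators of HIF, such as the coactivators Ep300 and Crebbp and the other parts of the VHL ligase, 0 were called by edgeR in either comparison with saline. At an unadjusted p below 0.05 there were 5 of 25 in each, against 19.5% of all genes for sunitinib and 20.1% for R+S. DESeq2 called 2 in each. Of all genes it called 1513 of 19162, 1659 of 18178 and 2972 of 17218 in the 3 comparisons. In R+S versus sunitinib 2 rose, the coactivator gene Ncoa1 (0.72 on the log2 scale, edgeR adjusted p = 0.0404) and Zmynd8, a chromatin reader (0.39, 0.0426). In the same comparison 2 fell, Elob (by 0.85, 0.0378) and Eloc (by 0.38, 0.0415), which encode the elongins that tie VHL to its cullin. Of all genes, 7.21% were called in that comparison. The calls of these 4 genes were not stable. Ncoa1 and Zmynd8 were lost without sunitinib tumor 6, where 0 rose and 3 fell, and all 4 were lost without any 1 of the R+S tumors or of saline tumors 2, 3 and 4 or sunitinib tumors 8 and 12, and in the fit of those 8 tumors. Each of the 4 passed in at most 2 of the 12 fits that left out a tumor. Without sunitinib tumor 6, 1 of the list rose in each comparison with saline. The median of the list was 0.12, -0.07 and -0.22 in the 3 comparisons. Of 11 relatives of the HIF subunits with the same bHLH-PAS fold, such as Ahr and Clock, 8 were tested and 0 called by edgeR in any comparison, while DESeq2 called 1, 1 and 2, and edgeR called 1 in each comparison without sunitinib tumor 6. At an unadjusted p below 0.05, where all genes gave 19.5%, 20.1% and 30.4%, these 8 gave Ahr, Npas4 and Arntl2 for sunitinib versus saline, Arntl and Arntl2 for R+S versus saline, and Ahr and Arntl for R+S versus sunitinib.

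Among 23 other oxygen-dependent dioxygenases, 3 rose and 0 fell in sunitinib tumors. They were the collagen prolyl hydroxylase genes P4ha2 (2.12 on the log2 scale, edgeR adjusted p = 0.0195) and P4ha1 (1.497, 0.00683), and Jmjd6 (0.93, 0.014). In R+S tumors P4ha1 alone was called, and it rose by 1.28 (edgeR adjusted p = 0.0216), a call lost without saline tumor 2, 3 or 4 or R+S tumor 4 or 5. In R+S versus sunitinib Jmjd6 alone was called, and it fell by 0.73 (edgeR adjusted p = 0.0408), a call that passed in 2 of the 12 fits that left out a tumor. It was lost without sunitinib tumor 6, without any 1 of the R+S tumors and in the fit of those 8 tumors, where edgeR called 0 of the 23. With all 12 tumors, 7 had an unadjusted p below 0.05 in that comparison, against 30.4% of all genes. DESeq2 called 3 of the 23 there, against 2972 of 17218 genes. The medians of the list were 0.10, 0.25 and 0.05, against 0.03, 0.01 and -0.02 for all genes. Of all genes 4.48%, 4.16% and 7.21% were called in the 3 comparisons. The 3 calls for sunitinib became 1 without saline tumor 3 or 4 and in the fit of those 8 tumors, and P4ha1 passed in all 12 fits that left out a tumor. The Tet and Kdm demethylase genes of this list were not among those called by edgeR with all 12 tumors. DESeq2 called 4 of the 23 for sunitinib versus saline, against 1513 of 19162 genes, and 3 for R+S versus saline, against 1659 of 18178. At an unadjusted edgeR p below 0.05 there were 4 and 5, against 19.5% and 20.1% of all genes.

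Of 33 known HIF target genes, 32 were tested. In sunitinib tumors 12 rose and 0 fell, against 4.48% of all genes called in either direction. The list median was 1.37, against 0.03 for all genes. The largest rises were those of Ak4, an adenylate kinase of mitochondria, by 4.89, the lactate exporter gene Slc16a3 by 3.82, Ldha by 2.93 and Angptl4 by 2.68. The Ldha call passed in 8 of the 12 fits that left out a tumor and was lost without any 1 saline tumor. The other 3 calls passed in all 12. The summed level of the list was 2313, 3127, 1496 and 1857 CPM in sunitinib tumors 5, 6, 8 and 12. It was 1385 to 1500 CPM in saline tumors, a range that includes sunitinib tumor 8, and 1694 to 2291 CPM in R+S tumors. In R+S tumors 5 rose and 0 fell, against 4.16% of all genes called, with a median of 0.49 against 0.01. The rises were led by Ak4 at 2.73 and Angptl4 at 2.14. Ak4 passed in 5 and Angptl4 in 10 of the 12 fits that left out a tumor. In R+S versus sunitinib 0 rose and 7 fell, against 7.21% of all genes called, with a median of -0.67 against -0.02. The falls were led by Ldha, by 2.92, and Car9, a carbonic anhydrase gene, by 2.47. With a tumor left out, Ldha passed in 7 of the 12 fits and Car9 in 2. Car9 was lost without sunitinib tumor 6 or 8, or without any 1 of the saline or R+S tumors. Without sunitinib tumor 6 the counts were 12 up, then 8 up with 1 down, then 1 up with 5 down, and the medians 0.75, 0.50 and -0.29. The 7 that fell in R+S versus sunitinib became 0 without R+S tumor 4, 5 or 7, 1 without R+S tumor 10, 3 to 5 without a saline tumor and 0 in the fit of those 8 tumors, while the median stayed between -0.82 and -0.64 in the fits without an R+S tumor. The 5 that rose in R+S tumors became 3, 0, 1 and 0 without saline tumors 1, 2, 3 and 4, became 1, 1 and 2 without R+S tumors 4, 5 and 7, and became 11, with 1 that fell, in the fit of those 8 tumors. The 12 that rose in sunitinib tumors ran from 8 to 14 with a tumor left out, at 8 without saline tumor 2, 3 or 4 and in the fit of those 8 tumors. P4ha1, P4ha2 and Kdm3a stand on this list and on that of the dioxygenases. The rise of Egln1 was thus smaller than the median of these targets in sunitinib tumors (0.58 against 1.37) and larger in R+S tumors (0.84 against 0.49), a contrast that was not tested. Without sunitinib tumor 6 these pairs were 0.58 against 0.75 and 0.84 against 0.50.

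The genes whose log2 CPM followed single members most closely over the 12 tumors were taken from 10344 genes with enough reads, as a description without a test, since the tumors share groups and cell content. For Hif1a they were Mrs2 (Pearson r = 0.977), Tmtc3 (0.969) and Map4k3 (0.962). For Epas1 they were Ets1 (0.954), a transcription factor gene expressed in endothelium, and the matrix genes Nid1 (0.951) and Ltbp4 (0.950). Ets1 averaged 35.8 CPM in saline, 7.56 in sunitinib and 10.4 in R+S tumors. For Egln1 they were Clk4 (0.955), Arglu1 (0.942) and Klhl26 (0.925). Clk4, a kinase gene, averaged 135 CPM in saline, 168 in sunitinib and 199 in R+S tumors, the same order of groups as Egln1. For Egln3 they were Igbp1 (0.915), Trmt6 (0.888) and Tnfsf9 (0.885), looser than for the other genes.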

How the data were processed

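RNA-seq was performed on poly(A) libraries made with a strand-marking kit from 12 PanNETs, 4 in each of 3 groups taken from the labels. For each tumor the authors deposited raw counts of reads per Ensembl gene. Their processing notes name cutadapt 1.2.1, TopHat2 2.0.9, HTSeq 0.5.4p3 and GRCm38. The annotation release and the strand setting of the counting are not given in the sources used here. The 5 summary lines of HTSeq were left out of library sizes and tests; reads that align to several places, 21203479 to 48418780 alignments per tumor, are not in the gene counts. PCR copies were not marked, so counting error is a lower bound.

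Totals ran from 31872342 to 44215054 (median 38526164). Of the 38924 identifiers, 37607 matched a symbol of GENCODE M21. Counts were normalized by TMM and tested with edgeR 4.0.16 (R 4.3.3, limma 3.58.1; glmQLFit with robust estimation, glmQLFTest) in 1 fit of 12 tumors and 3 groups. Genes were kept by filterByExpr (minimum count 10, minimum total 15), which left 16645, and p-values were adjusted by Benjamini-Hochberg in each comparison. The SE is the absolute log2 fold change over the square root of F, and 95% intervals use the test's degrees of freedom. Exact permutation tests were two-sided, on log2 CPM with a prior count of 2. Levels between genes are CPM per kb of merged exons. Motifs were searched in the 250 bases before RefSeq starts.

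The members, gene lists and tests were chosen with earlier results of these data known. All 10 members are named; of each pathway list and comparison, at most the 4 called genes with the largest absolute log2 fold change; for Hif1a, Epas1, Egln1 and Egln3, the 3 genes with the highest Pearson correlation and a mean log2 CPM of at least 3. Other names, such as those of bHLH-PAS genes below an unadjusted p of 0.05, were chosen after their values were seen. The fit was tested on simulated counts with 200 genes changed in the sunitinib group. For sunitinib versus saline it recovered 104 of them, 33 at a log2 change of 1 and 71 at a larger one, so a member that did not pass may still differ. Log2 changes smaller than 1 were not simulated. The fit also called 7 genes that had not been changed. Alternatives were DESeq2 1.42.0, library size only, upper-quartile factors, no filter, at least 10 counts in every tumor, the 8 tumors compared alone, treated tumors with a shared title prefix summed (sunitinib 5, 6 and 8; R+S 5 and 7), and each tumor left out. The 4 saline titles also share a code, which was not summed since it would leave 1 sample. Counts of list genes under these alternatives were added after seeing the data. The prefixes differ between the groups, so their effect cannot be told apart from treatment.

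Of the other marker lists, in sunitinib tumors 3 of 9 pericyte markers fell, 2 of 9 macrophage markers fell, 2 of 6 duct markers rose, 5 of 5 erythroid markers fell, and 0 of 7 fibroblast markers were called. In R+S tumors 2 pericyte, 1 macrophage and 5 erythroid markers fell. In R+S versus sunitinib 1 pericyte marker rose and 1 macrophage marker fell. The fibroblast markers gave 0 edgeR calls in all 3 comparisons, with 0, 3 and 3 at an unadjusted p below 0.05. DESeq2 called 0, 1 and 2 of them, against 1513 of 19162, 1659 of 18178 and 2972 of 17218 genes. Without sunitinib tumor 6, 4 pericyte, 2 macrophage, 1 fibroblast and 5 erythroid markers fell and 1 duct marker rose in sunitinib tumors. Then 3 pericyte, 4 macrophage, 1 fibroblast and 5 erythroid markers fell and 2 duct markers rose in R+S tumors, and in R+S versus sunitinib 1 fibroblast and 1 macrophage marker fell and 1 duct marker rose. With any tumor left out, pericyte calls ran from 2 to 4 for sunitinib and 0 to 3 for R+S, macrophage calls from 2 to 3 and 1 to 4, and duct calls from 0 to 3 and 0 to 2. All 11 acinar markers tested rose in both treated groups.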

Additional observations from a re-analysis of the deposited data

Results flagged for a closer look

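Among 75 groups of 4 tumors examined with Dixon's test, which flags about 1 in 20 by chance, 6 held a tumor whose gap to the next was large for the range of its group. In 3 of these it was sunitinib tumor 6. Its Epas1 level was 54.9 CPM, against 7.86 to 15.6 CPM in the other sunitinib tumors, its Arnt2 level was 166 CPM, against 29.2 to 45.2 CPM, and its ratio of Epas1 to Hif1a per exon length was 0.578, against 0.0817 to 0.165. Sunitinib tumor 12 stood apart for Egln2, at 114 CPM against 69.5 to 70.6 CPM. Saline tumor 1 stood apart for the share of Egln2 in the 3 prolyl hydroxylase genes, at 56.3% against 42.8% to 43.7%, and for the summed acinar markers, at 83.5 CPM against 2.43 to 5.69 CPM.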

How the results depend on the processing

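Of the 510 recomputed log2 fold changes of members, 482 kept their direction and their side of the threshold. The number of members called for sunitinib versus saline, 1, became 0 in the fit of the 8 tumors compared, and ran from 0 to 2 with a tumor left out. For R+S versus saline, 1 became 3 in the fit of 8 tumors and 2 with treated tumors of a shared title prefix summed, and ran from 1 to 2 with a tumor left out. For R+S versus sunitinib, 0 became 1 by DESeq2, and ran from 0 to 1 with a tumor left out. Signs turned only with a tumor left out, and only for values that were not called: Arnt (-0.15 to 0.064), Arnt2 (-0.036 to 1.11) and Hif1an (-0.014 to 0.17) for sunitinib versus saline, Arnt2 (-0.46 to 0.043) and Egln2 (-0.16 to 0.035) for R+S versus saline, and Epas1 (-0.26 to 0.98) and Egln3 (-0.33 to 0.059) for R+S versus sunitinib. With prefixes summed, Epas1 passed for sunitinib versus saline (-2.19, edgeR adjusted p = 0.0274) and R+S versus saline (-1.81, 0.0323), and Egln1 did not for sunitinib versus saline (0.0600). Epas1 also passed for R+S versus saline without sunitinib tumor 12 (0.0362). DESeq2 gave Epas1 no p, since a count was marked as an outlier, with log2 fold changes of -1.83 and -1.80 against saline. Without the filter Hif3a gave 0.26, 0.05 and -0.21, none called. Over all genes the calls for sunitinib versus saline, R+S versus saline and R+S versus sunitinib were 745, 693 and 1200, against 1513, 1659 and 2972 by DESeq2, and 380, 2557 and 3 in fits of 8 tumors. Without a filter the last was 501, and with at least 10 counts in every tumor the first was 408. With a tumor left out they ran from 440 to 902, 292 to 1627 and 0 to 2861. The causes of these shifts were not tested. Hif3a, with at most 13 reads, is limited by depth, and the other members by the spread of 4 tumors. No paired analysis was possible because the groups compared share fewer than 2 label numbers.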
